A study of Mus musculus with 12 samples.

Results

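Cells protect their chromosomes with a network of genes that sense damaged DNA, halt the cell cycle and repair the lesion. The 39 genes described here belong to that network: damage sensors and their kinases, checkpoint proteins, and the homologous recombination, Fanconi anaemia, end-joining, single-strand break and mismatch repair pathways, with 3 enzymes that also act at telomeres. The rule names the genes and uses no measured value, but they were chosen with earlier results of these data known. All 39 had a probe set annotated with that symbol alone, and the array held 19938 genes with such a probe set among its 28853 probe sets. Nbn had 2 such probe sets and Bard1 3, and the brightest was used.

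Total RNA was hybridised to Affymetrix gene arrays (Mouse Gene 1.0 ST). It came from fibroblasts grown from male C57BL/6J mouse embryos (E12.5-14.5) and harvested at passage 5. The 4 groups of 3 cultures, 1 array each, were first-generation (G1) mTERT KO, which lack the reverse transcriptase subunit of telomerase encoded by Tert, wild-type mTERT WT, first-generation mTR KO, which lack the telomerase RNA encoded by Terc, and wild-type mTR WT. All groups shared strain, sex, passage and medium, and none received a treatment. According to the design text, knockout and wild-type embryos of a set were littermates and 3 independent sets were examined. Which part of each gene is deleted, and whether a culture came from 1 embryo or from several, is unknown from the labels.

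Telomerase extends the repeats at chromosome ends. A telomere that has become too short is recognised as a broken end, and the kinases ATM and ATR then signal through CHEK2 and CHEK1 to p53 and the cell cycle. In a first generation without telomerase the embryos inherit telomeres from parents that carried the enzyme. The comparison asks whether the transcripts of the damage network differ in such cells. Much of this signalling runs through protein phosphorylation, which an RNA array does not measure.

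Values are log2 signals per probe set, so that a difference of 1 is a 2-fold change. The signal of Tert was 4.99, 4.83 and 4.75 in mTERT KO cultures 1, 2 and 3, against 5.72, 5.74 and 5.51 in mTERT WT (difference -0.79, limma adjusted p = 0.0352). Terc read 4.50, 4.73 and 4.57 in mTR KO and 4.65, 4.73 and 4.94 in mTR WT (difference -0.17, limma adjusted p = 0.840), so the array did not separate the mTR genotypes by their targeted gene. A background level for each array was set from 1035 probe sets of olfactory receptors, at their 95th percentile, and it lay between 4.93 and 5.09. Terc lay below it in all 12 cultures, and whether either probe set covers the deleted part of its gene was not tested. Brca2 lay above it in 10 cultures, Palb2 in 9, and the other 37 genes in all 12. All 11 matched fibroblast markers lay above background in every culture, and so did 15 or 16 of 16 macrophage markers, while 0 of 4 erythroid and 0 to 2 of 8 endothelial markers did. In RNA from a whole culture, fewer cells of a type and less RNA per cell cannot be told apart. Each p-value below measures the spread between 3 cultures of a group, pooled over the 4 groups. Except where a block or a paired fit is named, p-values, SE and intervals take no pairing of cultures into account.

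None of the 39 genes passed the test in either knockout. In mTERT KO against mTERT WT 0 of 39 passed at an adjusted p of 5% (limma with Benjamini-Hochberg adjustment over all probe sets), where 0.00347% of all probe sets did, the single one being Tert. Xrcc1 and Xrcc5, 2 of 39, had an unadjusted p under 0.05, as did 1.92% of all probe sets. In mTR KO against mTR WT again 0 of 39 passed, with 0% of all probe sets passing, and 1 gene, Blm, had an unadjusted p under 0.05, against 5.82% of all probe sets.

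The differences were small and lay mostly above 0. In mTERT KO 31 of 39 genes read higher than in mTERT WT and 8 lower, with a median difference of 0.07. Of all probe sets 50.6% lay above 0, with a median of 0.00, and of the brighter 14427 probe sets 53.9%. In mTR KO 33 genes read higher than in mTR WT and 6 lower, with a median difference of 0.12, while 50.3% of all and 46.2% of the brighter probe sets lay above 0. The genes from the lowest to the highest difference spanned -0.13 (Brca2) to 0.21 (Rif1) in the mTERT comparison and -0.14 (Xrcc1) to 0.47 (Rif1) in the mTR comparison.

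The 95% intervals give, gene by gene, the differences that the estimates allow. These intervals take the cultures as unpaired groups and are not adjusted for the 39 genes. They reached a median of 0.26 to either side of the difference in both knockout comparisons. In the mTERT comparison the interval reaching farthest down was that of Brca2, to -0.61, and the one reaching farthest up that of Rif1, to 0.83 or 1.77-fold, so that 0 of 39 intervals held a 2-fold change. In the mTR comparison the bounds ran from -0.35 for Chek1 to 1.08 for Rif1, and 1 of 39 intervals, that of Rif1, held a 2-fold change.

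**Figure D1:**
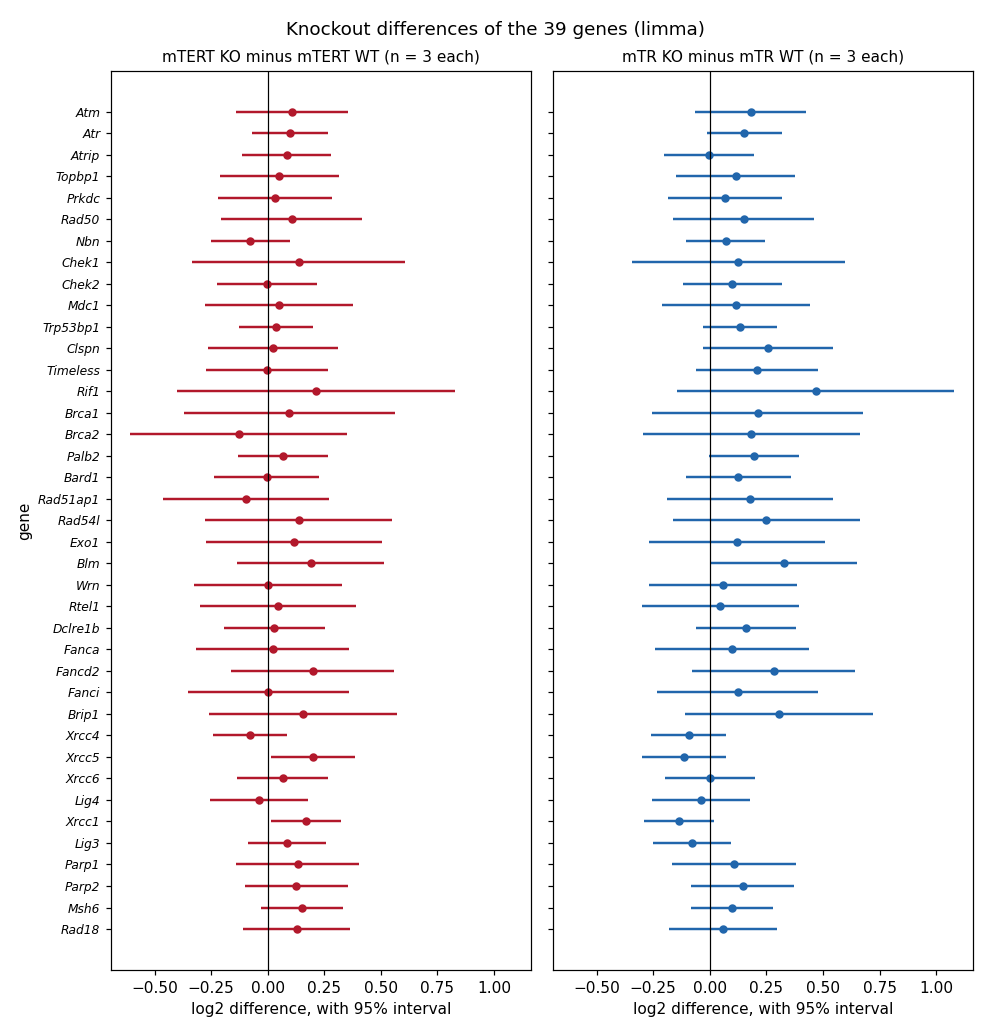
Knockout minus wild-type log2 difference (x axis) of each of the 39 genes (y axis, ordered by role) for the mTERT line on the left and the mTR line on the right. Points are limma estimates with 3 cultures a group, fitted without pairing, and bars their unadjusted 95% intervals. Of the intervals, 37 of 39 in the mTERT panel and 38 of 39 in the mTR panel cover 0, and that of Rif1 in the mTR panel reaches 1.08.

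A single culture carried much of the mTR count. The mTERT count moved when 1 culture was left out without its same-numbered partner. The mean signal over the 39 genes was 7.07, 6.97 and 6.83 in mTERT KO cultures 1, 2 and 3, against 6.99, 6.91 and 6.78 in mTERT WT, so that the same-numbered cultures followed each other and the groups overlapped. It was 7.17, 6.91 and 6.76 in mTR KO, against 6.86, 6.78 and 6.84 in mTR WT, with mTR KO 1 and 2 above and mTR KO 3 below all wild types of that line. The culture mTR KO 1 had the highest signal of all 12 cultures for 24 of 39 genes (61.5%), where it was the highest for 9.83% of all probe sets. Without mTR KO 1, 21 of 39 genes read higher in mTR KO with a median difference of 0.00. Without mTERT KO 1, 20 of 39 genes read higher in mTERT KO with a median of 0.01, and without mTERT WT 3 the count was 24 with a median of 0.02. Leaving out 1 mTERT culture keeps its same-numbered partner, which shifts the difference where partners follow each other. This holds for all such omissions below. Within same-numbered mTERT pairs 1, 2 and 3, 30, 27 and 26 of 39 genes read higher in mTERT KO. Over the omission of each culture in turn, 17 genes kept their sign in the mTERT comparison (15 higher, 2 lower) and 24 in the mTR comparison (20 higher, 4 lower).

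**Figure D2:**
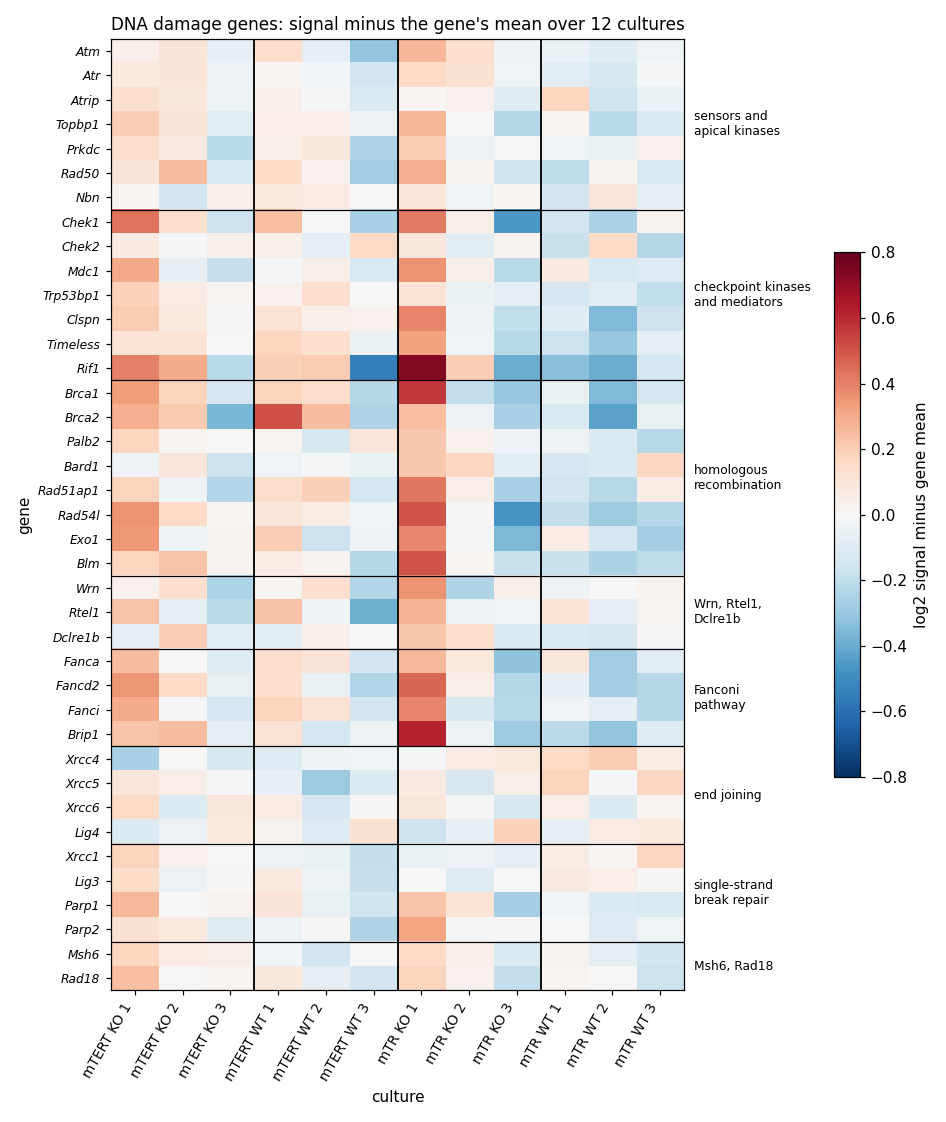
Log2 signal of each gene (y axis, grouped by role) in each of the 12 cultures (x axis) minus the gene's mean over the 12 cultures; red is above and blue below that mean, and lines part the groups and the roles. The column of mTR KO 1 is red for most genes, holding the highest signal for 24 of 39, while Xrcc4, Lig4 and Xrcc1 lie below their means there.

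The cultures were spread widely in the genes whose transcripts are known to rise as cells enter S phase, when the genome is copied. Of the 39 genes 15 belong to this class: Brca1, Brca2, Bard1, Rad51ap1, Rad54l, Exo1, Blm, Chek1, Clspn, Timeless, Fanca, Fancd2, Fanci, Brip1 and Msh6. Many such genes are driven by E2F factors, which release their transcription at the start of S phase, and by the trimeric factor NF-Y, which binds the CCAAT box. The range over the 3 mTR KO cultures had a median of 0.68 over these 15 genes, against 0.26 over the mTR WT cultures. The medians over all probe sets were 0.20 in mTR KO and 0.18 in mTR WT. In the mTERT line the 15 genes had median ranges of 0.35 in mTERT KO and 0.29 in mTERT WT, with 0.20 in both groups over all probe sets. For the 24 other genes the median range was 0.28 in mTR KO and 0.16 in mTR WT.

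The mean signal of the 15 S-phase genes was 6.33, 6.19 and 5.99 in mTERT KO cultures 1, 2 and 3, against 6.23, 6.12 and 5.96 in mTERT WT. It was 6.47, 6.08 and 5.82 in mTR KO, against 5.99, 5.83 and 5.97 in mTR WT. In both lines the knockout and wild-type cultures overlapped, and mTR KO held both the highest and the lowest of the 12 cultures. In the mTERT comparison 11 of 15 read higher in mTERT KO with a median difference of 0.10, while 5 of 15 did so without mTERT KO 1 (median -0.01) and 8 of 15 without mTERT WT 3 (median 0.01). In the mTR comparison 15 of 15 read higher in mTR KO with a median of 0.18, and without mTR KO 1 the count was 9 of 15 with a median of 0.03. The 24 other genes read higher in 20 cases in mTERT KO, with a median difference of 0.07, and in 18 cases in mTR KO, with a median of 0.08. Without mTERT KO 1 the count was 15 of 24 with a median of 0.02, and without mTR KO 1 it was 12 of 24 with a median of 0.00.

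Replication and mitotic genes outside the 39 ordered the 3 cultures of each group as the S-phase genes did, though not all 12 cultures. The mean of 39 DNA replication genes was 7.47, 7.29 and 7.25 in mTERT KO, against 7.39, 7.22 and 7.22 in mTERT WT, and 7.58, 7.22 and 6.99 in mTR KO, against 7.24, 7.09 and 7.13 in mTR WT. Culture mTR KO 1 was the highest of 12 for 28 of 39 replication genes and 26 of 30 mitotic genes, against 9.83% of all probe sets. Culture mTR KO 3 was the lowest for 25 of 39 and 18 of 30, against 5.68% of all probe sets. In mTERT KO 32 of 39 replication and 24 of 30 mitotic genes read higher than in mTERT WT, with medians of 0.05 and 0.06. Without mTERT KO 1 these counts were 20 of 39 and 9 of 30, with medians of 0.00 and -0.06, without mTERT WT 2 the replication count was 23 of 39, and without mTERT WT 3 the mitotic count was 10 of 30. In mTR KO the counts were 36 of 39 and 27 of 30 with medians of 0.09 and 0.15, and without mTR KO 1 they were 13 of 39 and 6 of 30. None of these genes passed the test in either comparison. The part of proliferation in the damage genes' differences was not tested.

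Macrophage markers also differed between cultures. Their mean was 7.41, 9.16 and 8.94 in mTERT KO, against 7.70, 8.97 and 9.28 in mTERT WT, and 9.47, 8.81 and 7.52 in mTR KO, against 6.69, 8.25 and 8.67 in mTR WT. They read higher in mTR KO for 16 of 16 markers, with a median difference of 0.73, and in mTERT KO for 1 of 16, with a median of -0.14. Without mTERT KO 1 the mTERT count was 16 of 16 (median 0.42), without mTERT WT 2 it was 7 of 16 (median -0.01), without mTERT WT 3 it was 15 of 16 (median 0.20), and without any other mTERT culture it was 0 of 16. In the mTR line the median was 0.35 without mTR KO 1 and 0.11 without mTR WT 1. Of the markers 0 of 16 passed in either comparison, and their part in the damage genes' differences was not tested.

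**Figure D3:**
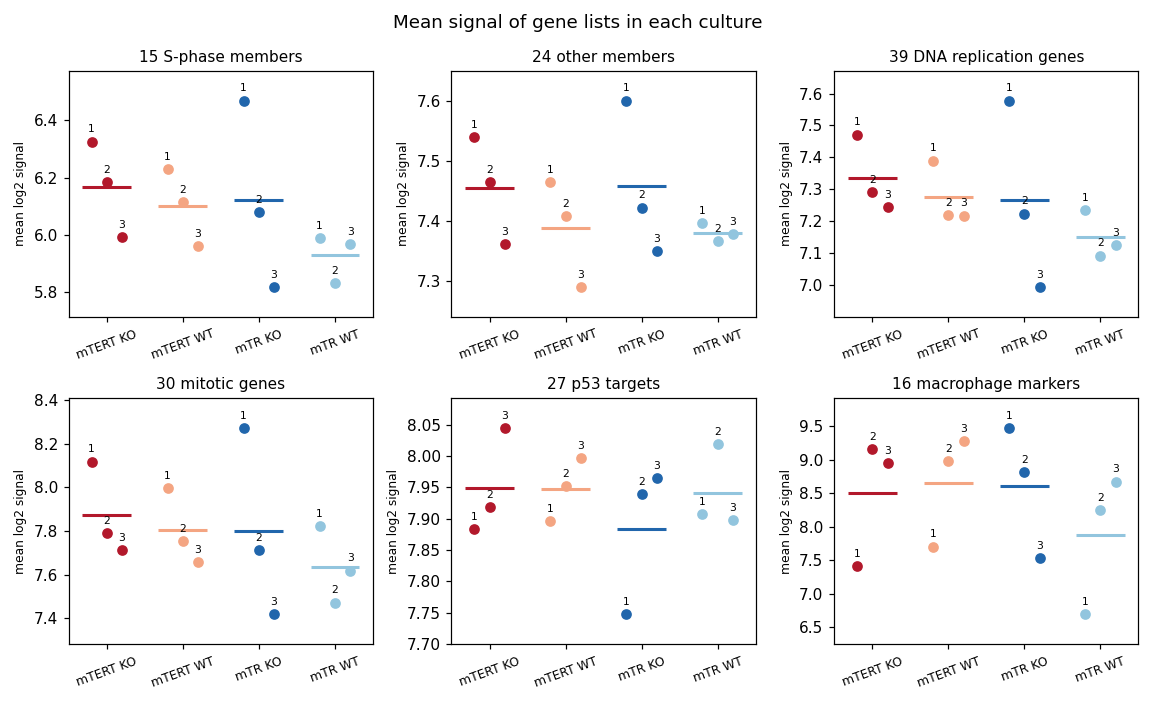
Mean log2 signal (y axis) of 6 gene lists in each culture; points are cultures with their replicate number, bars the group means, and the x axis gives the groups of 3. The 15 S-phase genes, the replication and the mitotic genes show mTR KO 1 highest and mTR KO 3 lowest of all 12 cultures, the p53 targets show mTR KO 1 lowest at 7.75, and the macrophage markers range from 6.69 in mTR WT 1 to 9.47 in mTR KO 1.

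Promoters are shown for the 3 S-phase genes with the smallest p in a knockout comparison that had an entry, as examples of this class. The RefSeq table of build GRCm38.p6, which gives 250 bases before to 50 bases after a start site, held 35 promoters of 32 of the 39 genes. Prkdc, Rad50, Nbn, Rif1, Exo1, Wrn and Fancd2 are named only. Each promoter runs 5′ to 3′ along its gene, and capitals mark E2F-type motifs and the CCAAT box on either strand. The Msh6 promoter lies at chr17:87974800-87975099 on the plus strand, that of Blm at chr7:80534949-80535248 on the minus strand, and that of Clspn at chr4:126556730-126557029 on the plus strand.
Msh6: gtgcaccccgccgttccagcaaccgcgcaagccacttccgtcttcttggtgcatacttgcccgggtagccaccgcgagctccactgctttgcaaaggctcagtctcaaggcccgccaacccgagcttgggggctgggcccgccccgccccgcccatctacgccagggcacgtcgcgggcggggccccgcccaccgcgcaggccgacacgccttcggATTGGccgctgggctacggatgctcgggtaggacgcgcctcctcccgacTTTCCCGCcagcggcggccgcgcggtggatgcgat
Blm: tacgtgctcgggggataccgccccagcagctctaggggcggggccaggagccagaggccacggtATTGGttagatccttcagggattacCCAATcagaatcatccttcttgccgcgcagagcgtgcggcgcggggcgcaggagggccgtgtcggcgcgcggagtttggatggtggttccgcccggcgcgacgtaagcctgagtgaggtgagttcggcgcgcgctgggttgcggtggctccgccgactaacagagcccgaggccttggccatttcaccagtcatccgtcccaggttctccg
Clspn: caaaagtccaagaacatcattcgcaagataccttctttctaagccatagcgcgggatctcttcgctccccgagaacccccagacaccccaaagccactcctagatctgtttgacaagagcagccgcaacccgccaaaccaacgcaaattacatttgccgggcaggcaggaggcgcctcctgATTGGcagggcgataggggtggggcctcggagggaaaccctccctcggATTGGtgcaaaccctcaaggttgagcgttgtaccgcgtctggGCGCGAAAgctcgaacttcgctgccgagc

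The E2F-type motifs searched were TTTCCCGC, TTTCGCGC, TTTGCCGC and TTTGGCGC, on both strands, with CCAAT searched likewise. Overlapping matches were counted once per promoter, and no E2F-type motif contains CCAAT. Positions give the leftmost base, counted from 1 at the first base after the 250 upstream bases. Msh6 held TTTCCCGC at 16 and a CCAAT box, read on the other strand as ATTGG, at -34. Clspn held TTTCGCGC on the other strand at 22 and CCAAT boxes at -69 and -21, and Blm held CCAAT boxes at -186 and -161 and none of the E2F-type letters. E2F-type motifs stood in 4 of 14 promoters of the S-phase genes (28.6%), in 4 of 21 of the other genes (19.0%) and in 744 of all 32851 promoters (2.26%). CCAAT stood in 9 of 14 (64.3%), 8 of 21 (38.1%) and 37.4% of all promoters. These matches describe letters and not binding, and the sets were not matched for base composition.

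Among the 7 sensors and apical kinases, 6 of 7 read higher in each knockout and none passed. The count was 4 of 7 without mTERT KO 1, 3 of 7 without mTERT WT 3 and, in the mTR line, 4 of 7 without mTR KO 1. Atm, the kinase that answers broken ends, read 7.78, 7.84 and 7.68 in mTERT KO, against 7.88, 7.67 and 7.42 in mTERT WT, and 8.01, 7.87 and 7.70 in mTR KO, against 7.68, 7.64 and 7.71 in mTR WT. The groups overlapped in both lines, and the differences were 0.11 ± 0.11 (SE, n = 3 each) and 0.18 ± 0.11, with adjusted p of 1 and 0.840 (limma). Atr, the kinase that answers stretches of single-stranded DNA, read 7.28, 7.30 and 7.15 in mTERT KO, against 7.22, 7.18 and 7.05 in mTERT WT. In mTR KO it read 7.36, 7.32 and 7.16, against 7.12, 7.08 and 7.19 in mTR WT. It lay higher by 0.10 ± 0.08 in mTERT KO and 0.15 ± 0.08 in mTR KO (SE, adjusted p = 1 and 0.839, limma), with culture 3 of each knockout inside its wild-type range.

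Prkdc, the catalytic subunit of the DNA-dependent protein kinase, read 6.94, 6.87 and 6.58 in mTERT KO, against 6.85, 6.89 and 6.55 in mTERT WT, and 7.002, 6.75 and 6.79 in mTR KO, against 6.76, 6.75 and 6.83 in mTR WT. Its differences, 0.03 ± 0.11 and 0.07 ± 0.11 (SE), were smaller than their errors. Atrip, the partner of ATR, differed by 0.08 in mTERT KO and 0.00 in mTR KO, and Topbp1, an activator of ATR, by 0.05 and 0.11. Rad50 and Nbn form with MRE11 the complex that holds broken ends and recruits ATM. Rad50 differed by 0.11 in mTERT KO and 0.15 in mTR KO. Nbn read 7.90, 7.73 and 7.92 in mTERT KO, against 7.96, 7.95 and 7.88 in mTERT WT, and 7.98, 7.85 and 7.90 in mTR KO, against 7.73, 7.98 and 7.80 in mTR WT. It differed by -0.08 ± 0.08 in mTERT KO and 0.07 ± 0.08 in mTR KO (SE), with overlap in both lines.

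Of the 7 checkpoint kinases and mediators, 5 read higher in mTERT KO (1 without mTERT KO 1) and 7 in mTR KO, and none passed. Chek1, the effector kinase of ATR, read 7.66, 7.35 and 7.06 in mTERT KO, against 7.47, 7.22 and 6.97 in mTERT WT, and 7.64, 7.27 and 6.76 in mTR KO, against 7.07, 6.97 and 7.25 in mTR WT. The spread inside mTR KO, with an SD of 0.44, exceeded the difference of 0.13 ± 0.21 (SE), and in mTERT KO the difference was 0.14 ± 0.21 with overlap. Without culture 1 of the knockout, the difference of Chek1 was -0.01 in the mTERT line and -0.08 in the mTR line. Chek2, the effector kinase of ATM, read 7.63, 7.55 and 7.61 in mTERT KO, against 7.60, 7.48 and 7.71 in mTERT WT, and 7.65, 7.47 and 7.58 in mTR KO, against 7.38, 7.70 and 7.33 in mTR WT. The differences were 0.00 ± 0.10 and 0.10 ± 0.10 (SE).

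Trp53bp1, the chromatin protein that shields broken ends from resection, read 7.72, 7.60 and 7.56 in mTERT KO, against 7.57, 7.67 and 7.54 in mTERT WT, with overlap. In mTR KO it read 7.65, 7.48 and 7.46, against 7.40, 7.45 and 7.34 in mTR WT, so that all 3 knockout cultures lay above all 3 wild types, by 0.13 ± 0.07 (SE, adjusted p = 0.840, limma). Clspn, the adaptor through which ATR phosphorylates CHEK1, read 6.27, 6.15 and 6.06 in mTERT KO, against 6.19, 6.11 and 6.11 in mTERT WT. In mTR KO it read 6.46, 6.04 and 5.88, against 5.98, 5.72 and 5.91 in mTR WT (0.26 ± 0.13, SE, adjusted p = 0.840, limma), with overlap. Mdc1, which binds phosphorylated histone H2AX, differed by 0.05 in mTERT KO and 0.12 in mTR KO, and Timeless, which steadies replication forks, by 0.00 and 0.21. Rif1, which acts with Trp53bp1 and in replication timing, read 8.09, 7.98 and 7.48 in mTERT KO, against 7.88, 7.89 and 7.14 in mTERT WT, and 8.42, 7.88 and 7.29 in mTR KO, against 7.35, 7.29 and 7.55 in mTR WT. It had the highest difference of the 39 genes in each line, 0.21 ± 0.28 and 0.47 ± 0.28 (SE), and an SD of 0.57 among mTR KO cultures. Over the omission of each culture its mTERT difference ran from -0.03 (without mTERT WT 3) to 0.40.

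In homologous recombination, which copies an intact sister chromatid, 5 of 8 genes read higher in mTERT KO and 8 of 8 in mTR KO, and none passed. Without mTERT KO 1 the mTERT count was 3 of 8, without mTERT KO 3 it was 8 of 8, and without mTR KO 1 the mTR count was 5 of 8. Blm, the helicase that unwinds recombination intermediates, read 6.84, 6.89 and 6.69 in mTERT KO, against 6.73, 6.69 and 6.44 in mTERT WT (0.19 ± 0.15, SE, adjusted p = 1, limma). In mTR KO it read 7.17, 6.68 and 6.49, against 6.49, 6.42 and 6.46 in mTR WT (0.33 ± 0.15, SE, adjusted p = 0.839, limma). All mTR KO cultures lay above all mTR WT cultures, mTR KO 3 by less than 0.01. Without mTR KO 1 the difference of Blm was 0.13. Its 2 CCAAT boxes are shown above.

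Palb2, which joins BRCA1 to BRCA2, read 5.26, 5.10 and 5.08 in mTERT KO, against 5.11, 4.95 and 5.18 in mTERT WT, and 5.30, 5.12 and 5.04 in mTR KO, against 5.04, 4.97 and 4.86 in mTR WT. These values lay near background, and the mTR difference was 0.19 ± 0.09 (SE, adjusted p = 0.839, limma). Brca1 and Bard1 form a ubiquitin ligase that favours resection. Brca1 differed by 0.10 in mTERT KO and 0.21 in mTR KO, and Bard1 by -0.01 and 0.13. Brca2, a central mediator of recombination, averaged 5.45 ± 0.36 in mTERT KO and 5.58 ± 0.38 in mTERT WT, and 5.38 ± 0.25 in mTR KO and 5.20 ± 0.20 in mTR WT (SD, n = 3 each). Its mTERT difference ran from -0.34 to 0.08 over the omission of each culture. Rad51ap1 and Rad54l assist strand exchange. Rad51ap1 differed by -0.10 in mTERT KO and 0.18 in mTR KO, and Rad54l by 0.14 and 0.25. Exo1, a nuclease that resects ends, differed by 0.12 in each line.

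The 3 enzymes with known work at telomeres differed by at most 0.16 in either line. All 3 read higher in each knockout, but 1 of 3 did without mTERT KO 1, mTERT KO 2 or mTERT WT 3, and 1 of 3 in the mTR line without mTR KO 1. Wrn, a helicase of the RecQ family, differed by 0.00 in mTERT KO and 0.06 in mTR KO. Rtel1, a helicase that dismantles telomere loops, differed by 0.05 in each line. Dclre1b, the nuclease that trims newly copied telomere ends, differed by 0.03 in mTERT KO and 0.16 in mTR KO. None passed, and the adjusted p lay at 0.840 or above (limma).

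The 4 Fanconi anaemia genes, which unhook cross-linked strands, all read higher in each knockout, and none passed. In the mTERT line 2 of 4 did so without mTERT KO 1 or mTERT WT 3, and in the mTR line 2 of 4 without mTR KO 1. Fancd2, which is ubiquitinated with its partner Fanci at the lesion, read 6.13, 5.93 and 5.72 in mTERT KO, against 5.91, 5.73 and 5.55 in mTERT WT, and 6.24, 5.83 and 5.55 in mTR KO, against 5.72, 5.504 and 5.56 in mTR WT. The differences were 0.20 ± 0.16 (SE, adjusted p = 1, limma) and 0.28 ± 0.16 (adjusted p = 0.840), and the groups overlapped. Each mTERT KO culture lay above the wild type of the same number. Fanci differed by 0.00 in mTERT KO and 0.12 in mTR KO, Fanca, of the core ligase complex, by 0.02 and 0.10, and Brip1, a helicase that binds BRCA1, by 0.16 and 0.30.

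End joining, which ligates broken ends without a template, had 2 of its 4 genes higher in mTERT KO and 1 in mTR KO, and none passed. Xrcc5, the larger subunit of the Ku ring that clamps onto ends and also sits at telomeres, read 8.52, 8.47 and 8.41 in mTERT KO, against 8.35, 8.13 and 8.31 in mTERT WT. All 3 knockouts lay above all 3 wild types (0.20 ± 0.08, SE, adjusted p = 1, limma). In mTR KO it read 8.49, 8.29 and 8.47, against 8.60, 8.41 and 8.58 in mTR WT, a difference of -0.11 ± 0.08 (SE, adjusted p = 0.851, limma) with overlap. Xrcc6, the smaller Ku subunit, differed by 0.07 in mTERT KO and 0.00 in mTR KO. Xrcc4, the scaffold of the ligase, read 7.36, 7.61 and 7.49 in mTERT KO, against 7.52, 7.58 and 7.60 in mTERT WT, and 7.60, 7.68 and 7.70 in mTR KO, against 7.77, 7.82 and 7.68 in mTR WT. It differed by -0.08 ± 0.07 and -0.09 ± 0.07 (SE) with overlap, and Lig4, the ligase, by -0.04 in each line.

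In single-strand break repair, 4 of 4 genes read higher in mTERT KO and 2 of 4 in mTR KO, and none passed. Xrcc1, the scaffold on which its enzymes assemble, read 7.11, 6.96 and 6.93 in mTERT KO, against 6.88, 6.87 and 6.74 in mTERT WT. In mTR KO it read 6.88, 6.88 and 6.86, against 6.99, 6.95 and 7.09 in mTR WT. All mTERT KO cultures thus lay above all mTERT WT cultures (0.17 ± 0.07, SE, adjusted p = 1, limma), and all mTR KO cultures below all mTR WT cultures (-0.14 ± 0.07, adjusted p = 0.840). Lig3, the ligase bound to XRCC1, read 7.94, 7.74 and 7.80 in mTERT KO, against 7.87, 7.75 and 7.60 in mTERT WT, and 7.79, 7.69 and 7.79 in mTR KO, against 7.86, 7.84 and 7.80 in mTR WT. It differed by 0.08 ± 0.08 with overlap in the mTERT line and by -0.08 ± 0.08 (SE) without overlap in the mTR line. Parp1 and Parp2, the enzymes that mark a nick with poly(ADP-ribose), differed by 0.13 each in mTERT KO and by 0.11 and 0.14 in mTR KO.

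Msh6, which recognises mismatched bases, read 7.52, 7.41 and 7.39 in mTERT KO, against 7.33, 7.20 and 7.35 in mTERT WT, and 7.50, 7.39 and 7.24 in mTR KO, against 7.37, 7.27 and 7.19 in mTR WT. All mTERT KO cultures lay above all mTERT WT cultures (0.15 ± 0.08, SE, adjusted p = 1, limma), and the mTR groups overlapped (0.10 ± 0.08, adjusted p = 0.859). Rad18, a ubiquitin ligase for PCNA at stalled forks, differed by 0.13 in mTERT KO and 0.06 in mTR KO.

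**Figure D4:**
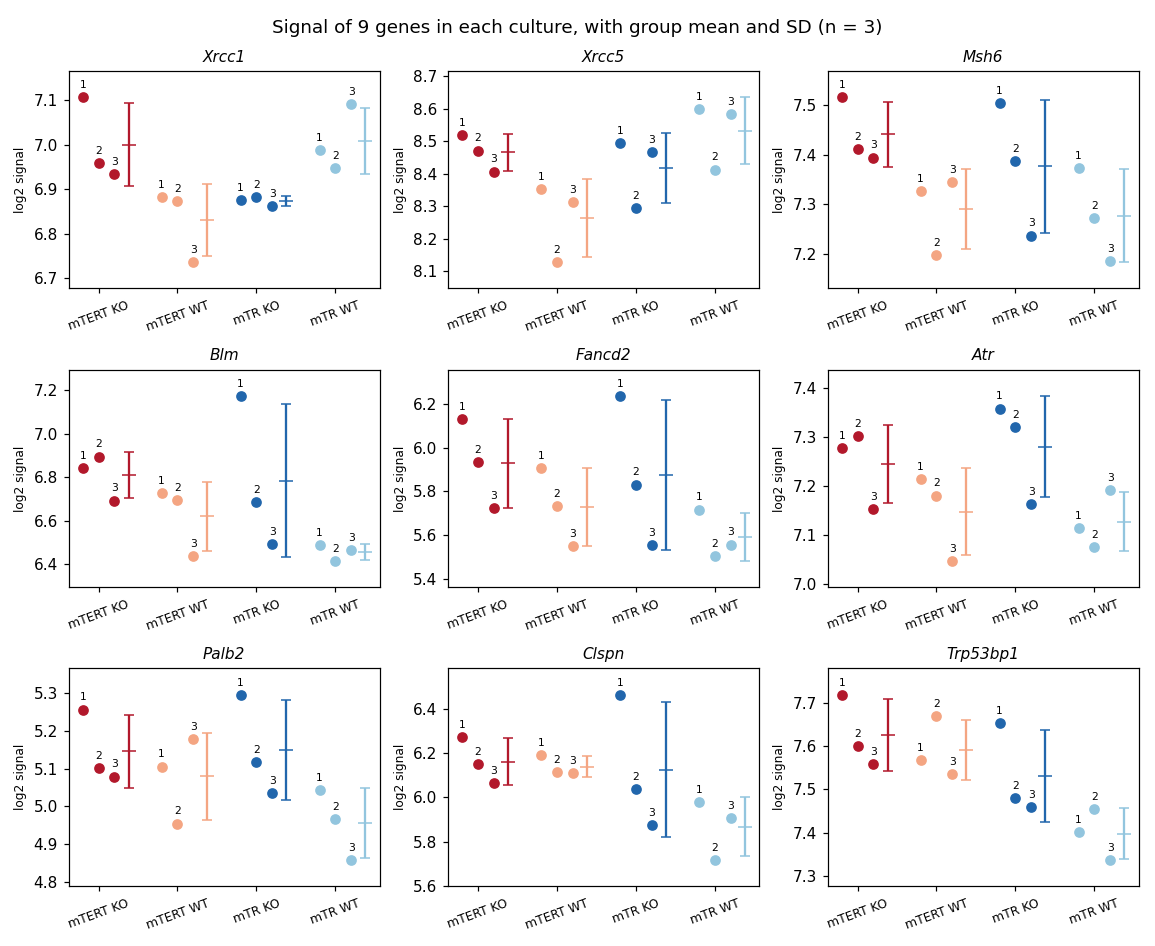
Log2 signal (y axis) of 9 genes in each culture of the 4 groups (x axis); points are cultures with their replicate number and the bar beside them is the group mean with its SD (n = 3). Xrcc1 lies higher in all mTERT KO than in all mTERT WT cultures and lower in all mTR KO than in all mTR WT cultures, while Blm, Fancd2 and Clspn are led by mTR KO 1.

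Groups without overlap were few. In the mTERT comparison 3 of 39 genes (Xrcc1, Xrcc5 and Msh6) had all KO above all WT cultures, where 2.88% of all probe sets did, and 0 had all below, where 3.09% did. In the mTR comparison 2 (Blm and Trp53bp1) lay wholly above, against 5.33% of all probe sets, and 2 (Xrcc1 and Lig3) wholly below, against 6.07%.

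Averaged over both lines, 36 of 39 genes had a mean KO effect above 0, against 50.4% of all probe sets, with a median of 0.08. None passed at 5%, with 0% of all probe sets passing, and 2 of 39 had an unadjusted p under 0.05, against 4.09%. These were Blm (0.26 ± 0.10, SE) and Atr (0.12 ± 0.05), both with an adjusted p of 0.985 (limma). Msh6 (0.12 ± 0.06) and Fancd2 (0.24 ± 0.12) came next, with the same adjusted p. The 3 genes below 0 were Xrcc4, Lig4 and Nbn.

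The knockout effects of the lines were also compared with each other, as mTERT KO effect minus mTR KO effect. Of the 39 genes 12 lay above 0 and 27 below, with a median of -0.07, and again 0 passed, with 0% of all probe sets passing. Both this difference and the mean draw on the same 12 cultures as the separate comparisons. An unadjusted p under 0.05 was reached by 2 of 39, against 3.34% of all probe sets. Xrcc1 differed by 0.30 ± 0.10 (SE) and Xrcc5 by 0.31 ± 0.12, each with an adjusted p of 1.00 (limma). Lig3 (0.16 ± 0.11) and Nbn (-0.15 ± 0.11) followed, also at an adjusted p of 1.00.

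The wild types of the lines were set against each other as mTERT WT minus mTR WT, and these cultures are also the ones that the knockouts above were compared with. Of the 39 genes 26 read higher in mTERT WT, against 52.2% of all probe sets, with a median of 0.07. None of the 39 passed, where 0.0173% of all probe sets did, and 4 had an unadjusted p under 0.05, against 6.78%. Xrcc5 (-0.27 ± 0.08, SE), Xrcc4 (-0.19 ± 0.07) and Xrcc1 (-0.18 ± 0.07) lay lower in mTERT WT, and Trp53bp1 (0.19 ± 0.07) higher, with adjusted p from 0.547 to 0.672 (limma). All mTERT WT cultures lay above all mTR WT cultures for 4 genes (Trp53bp1, Timeless, Clspn and Rad54l), against 5.91% of all probe sets, and below for 3 (Xrcc5, Xrcc4 and Xrcc1), against 7.14%. The wild-type differences of Xrcc5, Xrcc4, Xrcc1 and Trp53bp1 exceeded their knockout differences in size.

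In the mTERT line the deviations of same-numbered knockout and wild-type cultures correlated over the brighter probe sets at 0.674, 0.733 and 0.790, so the numbers were read as pairs. Within these pairs 16 of 39 genes (41%) were higher in mTERT KO in all 3, where 12.6% of all probe sets were. Brca2 was lower in all 3, as were 3603 of the 28853 probe sets. The 16 were Atr and Atrip, Chek1 and Rif1, Brca1, Rad54l, Exo1 and Blm, Fancd2, Xrcc5 and Xrcc6, Xrcc1, Parp1 and Parp2, and Msh6 and Rad18. Fancd2 lay higher by 0.22, 0.20 and 0.17 in pairs 1, 2 and 3, Blm by 0.11, 0.20 and 0.25, and Xrcc1 by 0.22, 0.09 and 0.20. Rif1, whose cultures overlapped when taken as groups, lay higher by 0.22, 0.09 and 0.33. Brca2 differed by -0.22, -0.04 and -0.13.

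By pair, 30, 27 and 26 of 39 genes read higher in mTERT KO, with median differences of 0.11, 0.07 and 0.05, and leaving out pair 1, 2 or 3 left 27, 30 and 31. Of the 15 S-phase genes 7 were higher in all 3 pairs (46.7%), and of the 24 others 9 (37.5%). The shares were 14 of 53 for other repair genes (26.4%), 13 of 39 for replication genes (33.3%) and 7 of 30 for mitotic genes (23.3%). The same-numbered mTR cultures did not all deviate together, with correlations of -0.156, 0.289 and -0.377, and were not paired. Of different-numbered mTR cultures, KO 1 with WT 3 correlated at 0.372 and KO 3 with WT 1 at 0.319, and the rest between -0.24 and -0.005. Whether the mTR cultures match under other numbers was not tested.

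**Figure D5:**
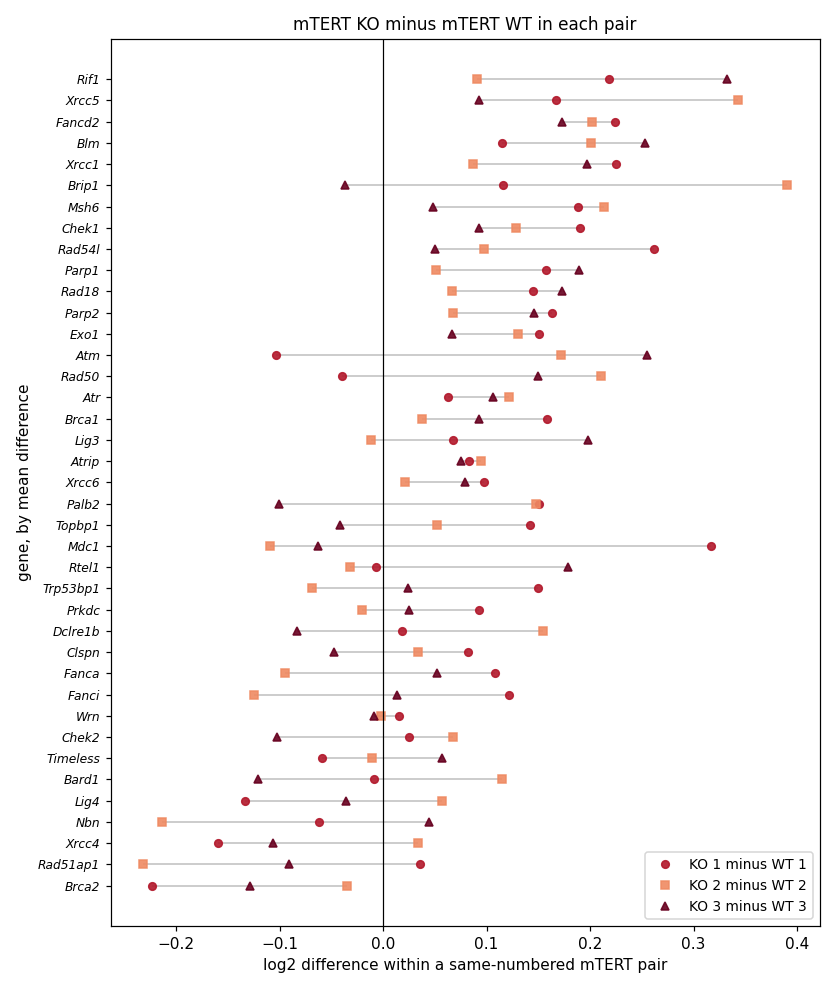
Log2 difference of mTERT KO minus mTERT WT within each same-numbered pair (x axis) for the 39 genes (y axis, ordered by mean difference); circles, squares and triangles are pairs 1, 2 and 3, joined by a grey line. All marks lie right of 0 for 16 genes and left of 0 for Brca2.

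The remaining repair genes and the transcripts that p53 induces after damage were taken from further lists. Of 53 other repair genes 40 read higher in mTERT KO (median 0.04) and 26 in mTR KO (median 0.00), and 0 passed in either. Those with the smallest p were Xrcc3, of homologous recombination (0.21 ± 0.09, SE, adjusted p = 1, limma) in the mTERT comparison, and in the mTR comparison Ercc6, of transcription-coupled repair (-0.21 ± 0.09), and Smc5, of the SMC5/6 complex (0.29 ± 0.13), each with an adjusted p of 0.839 (limma). Ercc6 read 7.47, 7.55 and 7.63 in mTR KO, against 7.73, 7.77 and 7.77 in mTR WT, with no overlap. Smc5 lay higher in all mTR KO than in all mTR WT cultures. In the mTR comparison 4 of the 53 lay wholly above and 2 wholly below (11.3%), against 11.4% of all probe sets. In the mTERT comparison 1, Xrcc3, lay wholly above and 0 below (1.89%), against 5.97%.

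Of 27 p53 target genes 12 read higher in mTERT KO (median -0.02) and 11 in mTR KO (median -0.03), and 0 passed. The listed targets Cdkn1a, which encodes p21, Bax and Gdf15 had no probe set annotated with that symbol alone. They were therefore not read. The direction turned with single cultures: the mTERT count was 17 of 27 without mTERT KO 1 or mTERT WT 3 and 18 of 27 without mTERT KO 2, and the mTR count was 17 of 27 without mTR KO 1 and 16 of 27 without mTR WT 2, each with a median between 0.02 and 0.03. Their mean was 7.88, 7.92 and 8.05 in mTERT KO, against 7.90, 7.95 and 7.997 in mTERT WT, and 7.75, 7.94 and 7.96 in mTR KO, against 7.91, 8.02 and 7.90 in mTR WT. The groups overlapped in both lines. Culture mTR KO 1 was the lowest of 12 for 12 of 27 targets (44.4%), where it was the lowest for 16.2% of all probe sets. Gadd45a, a growth arrest gene, read 9.58, 9.54 and 9.21 in mTERT KO, against 9.37, 9.38 and 9.004 in mTERT WT (0.20 ± 0.14, SE, adjusted p = 1, limma), with overlap. In mTR KO the targets with the smallest p were Fas, a death receptor, which differed by -0.50 ± 0.23 (SE), and Perp, a desmosomal protein near background, which differed by -0.37 ± 0.16, each with an adjusted p of 0.839 (limma). Fas read 7.18, 7.23 and 7.59 in mTR KO, against 7.81, 7.59 and 8.09 in mTR WT, and mTR KO 3 lay just below the lowest wild type.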

How the data were processed

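RNA was measured on 12 Affymetrix arrays, 1 per culture. The values used are the log2 signals per probe set that the authors deposited. GCOS 1.4, PLIER and Affymetrix Expression Console are named, without a role, per the submitters' processing notes; how arrays were normalized, and on which genome build, was not found in the labels. Correlations between arrays ran from 0.984 to 0.997 and column quantiles differed by at most 0.084, so no further scaling was applied.

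The platform annotation gave 21789 of the 28853 probe sets exactly 1 symbol, more than 1 to 1621, and none to 5443. A gene was represented by its brightest probe set of that symbol alone. The 39 genes and the comparison lists were chosen with earlier results of these data known. The lists matched 53 of 60 other repair genes, 27 of 30 p53 targets, 39 of 40 replication, 30 of 31 mitotic, 11 of 12 fibroblast, 16 of 16 macrophage, 8 of 8 endothelial, 8 of 8 epithelial, 4 of 8 erythroid and 9 of 9 skeletal muscle genes, and unmatched ones were not analysed here. Polk, Ddb2, Xpc and Ercc5 stood in both the other repair and the p53 list, and Ung in both the other repair and the replication list. Epithelial markers lay above background for 3 to 5 of 8 and skeletal muscle markers for 4 to 7 of 9 in each culture.

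The 4 group means were estimated for every probe set in limma 3.58.1 (R 4.3.3). Variances were moderated by empirical Bayes, with 8 degrees of freedom from the residuals and 3.14 from the prior. Benjamini-Hochberg adjustment covered 28853 probe sets, at 5%. The fit was tested on simulated data. Values in every culture are given for Atm, Atr, Prkdc, Chek1, Chek2 and Trp53bp1, for the 6 genes with the smallest p in each knockout comparison and the 4 with the smallest in each other comparison; Rif1 was added for its difference, and of each other list the genes with the smallest p are named. The labels do not tie replicate numbers to litters. Over the 14427 brighter probe sets, same-numbered mTERT cultures deviated together, so the mTERT numbers were taken as pairs from the data. Different-numbered ones correlated between -0.525 and -0.184. This adds no separate support, because deviations from a group mean sum to 0 within the group. The precision of an array value is limited by the number of arrays. Alternatives were replicate blocks, quantile normalization, median centring, removal of dimmer probe sets, a trended robust variance, array weights, fewer arrays in the fit, the mean of all probe sets of a gene, and the omission of each array or mTERT pair. Plots were made in Python 3.11.15 (matplotlib 3.10.9).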

Additional observations from a re-analysis of the deposited data

Results flagged for a closer look

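Xrcc1 drew attention because its knockout effects ran in opposite ways. All 3 mTERT KO cultures lay above all 3 mTERT WT cultures, and all 3 mTR KO cultures lay below all 3 mTR WT cultures. The mTERT KO effect minus the mTR KO effect was 0.3049 on the log2 scale. The test of this difference in limma gave an adjusted p of 1.00, so it did not pass. The wild types of the lines also differed for Xrcc1, by -0.18 as mTERT WT minus mTR WT, and they enter this value. With 3 cultures a group, single outlying cultures were not tested for.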

How the results depend on the processing

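In each of the 5 comparisons 0 of the 39 genes passed under every alternative run, and the smallest adjusted p of any of them was 0.354 (limma). The mTERT pairs as a replicate block left 0 of 39 genes passing and 31 higher in mTERT KO, and changed no call at the adjusted 5%. At an unadjusted p under 0.05 this block added Fancd2 to Blm and Atr in the mean KO effect, against 5.44% of all probe sets. A fixed block by number within each line left 0 probe sets passing in the mTERT comparison, Tert included. This block also pairs the mTR cultures by number, although same-numbered mTR cultures did not all deviate together. With this block, 6 genes had an unadjusted p under 0.05 in the mean KO effect, against 6.64% of all probe sets. These were Atr, Palb2, Blm, Fancd2, Parp2 and Msh6, all higher. In the mTR comparison it gave 4 genes, against 8.49%. As a random effect the block gave 5 genes in the mean KO effect (5.92%) and 3 in the mTR comparison (8.27%). A paired fit of the 6 mTERT arrays alone, chosen after seeing the data, put Rif1, Blm, Fancd2, Xrcc5 and Xrcc1 under an unadjusted p of 0.05, with 5.56% of all probe sets and a smallest adjusted p of 0.829. The counts of genes higher were also added after seeing the data. Over the omission of each array they ran from 20 to 35 in the mTERT comparison, 21 to 34 in the mTR comparison and 7 to 26 in the difference of KO effects (21 without mTERT KO 3, 26 without mTR KO 1, 7 without mTR KO 3). Quantile normalization gave 30 and 34 higher in the knockout comparisons and median centring 31 and 32. Over these omissions 17 genes kept their sign in the mTERT comparison and 24 in the mTR comparison. Among those that turned were Rif1 (-0.033 to 0.40) and Brca2 (-0.34 to 0.077), the highest and lowest differences of the mTERT comparison, and Brca1 (-0.059 to 0.37) in the mTR comparison. Of the other named genes the sign turned for Atm (-0.010 to 0.22), Prkdc (-0.071 to 0.14), Chek1 (-0.013 to 0.29), Chek2 (-0.061 to 0.052), Trp53bp1 (-0.011 to 0.074) and Smc5 (-0.00807 to 0.27) in the mTERT comparison, and Prkdc (-0.0099 to 0.12) and Chek1 (-0.080 to 0.36) in the mTR comparison. Chek2 was at 0.019 with array weights and at 0.046 without mTERT pair 3, and Trp53bp1 at -0.0224 without pair 1, and the cause was not tested. Fixed blocks gave no value for mTERT WT against mTR WT, and the fit of only the arrays compared equals the full fit for the mean and the difference. With 3 arrays a group the unadjusted 95% intervals reached a median of 0.26 to either side, and even the highest difference of the 39 genes, 0.47 for Rif1 in the mTR comparison, did not pass.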
